A study of Bos taurus with 6 samples.

Results

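The proteasome is the barrel-shaped protease that destroys ubiquitin-tagged proteins. Its transcripts were followed in day-7 bovine blastocysts that had grown in superovulated or in synchronized heifers. The members were all probe sets whose platform annotation gave exactly 1 gene symbol beginning with PSMA, PSMB, PSMC, PSMD, PSME, PSMF or PSMG. The rule found 46 of 24016 tested probe sets, which covered 40 of 9155 genes. Of the 40 genes, 39 code for subunits, activators, an inhibitor or assembly chaperones, and each was read from its probe set with the highest mean. The remaining symbol, PSME3IP1, names a partner of a nuclear activator and is given apart. No probe set carried PSMA2, PSMA8, PSMB11, PSMD3, PSMD7, PSMD8, PSMD12, PSME3 or PSMG4 as its only symbol, so these genes were not analysed here.

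All embryos came from Simmental heifers that had been synchronized, superovulated and artificially inseminated, 18 animals in all. In the superovulated group (3 arrays) the blastocysts stayed in the superovulated tract and were flushed on day 7. In the synchronized group (3 arrays) embryos were recovered at the 2-cell stage on day 2 from 9 of the donors, moved by endoscope into recipients that had been synchronized without superovulation, and flushed on day 7. The groups therefore differed in the day-2 flushing and transfer as well as in the tract, and these cannot be told apart. The labels do not say how many blastocysts an array holds or whether replicate arrays stand for separate animals. The p-values then measure array-to-array spread alone, which may be technical. In whole blastocysts fewer cells of a type and less RNA per cell cannot be told apart.

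In the 26S proteasome a 20S core is capped by a 19S regulatory particle. The core has outer rings of alpha subunits, which form a gate, and inner rings of beta subunits, some of which cut peptide bonds. In the 19S particle a base with a ring of ATPases unfolds the substrate, and a lid removes its ubiquitin. Other activators can replace the 19S cap, and dedicated chaperones put the rings together. The early embryo uses proteasomal degradation to clear maternal proteins as its own genome takes over.

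Values are log2 signals from GCRMA. A positive log2 difference means more signal in the superovulated group, and its 95% interval comes from limma. The number of probe sets above log2 4 ran from 1457 to 1894 in the superovulated group and from 973 to 1850 in the synchronized group, with array medians of 2.75 to 2.80. Genes with a mean above log2 4 over all 6 arrays, 925 of 9155, are called bright here, and values under that line are near background. Of 7 measured markers of blastocyst epithelium, KRT18, DAB2 and EZR exceeded log2 4 on at least 3 arrays and KRT8, TFAP2A, ELF3 and TEAD4 on none. KRT18 rose by 3.89 (adjusted p = 0.0410) and DAB2 by 2.21 (adjusted p = 0.0387) in the superovulated group. Neither passed after a second quantile normalization or, of the fits that left out 1 array, in any but the one without synchronized array 3. EZR differed by 2.18 (adjusted p = 0.0602), and none of the 3 overlapped between the groups. The other probe set of DAB2 lay near background and differed by -0.13, with overlap. The summed level of the 7 was 29.98 to 31.25 on the superovulated and 20.88 to 23.51 on the synchronized arrays. Of 3 measured inner cell mass markers, POU5F1 differed by 0.81 (adjusted p = 0.0886) and KLF4 by 1.32 (adjusted p = 0.150), both higher without overlap, and SOX2 read at most 2.44. Their summed level was 10.58 to 11.38 against 8.42 to 9.16. CDX2, GATA3, IFNT and NANOG had no probe set under those symbols. All 6 measured immune and blood markers stayed below log2 4 on every array. Of 8 cumulus and granulosa markers, 3 exceeded log2 4 somewhere, and their summed level was 23.59 to 28.89 on the superovulated and 24.92 to 32.47 on the synchronized arrays. TNFAIP6, a cumulus matrix gene, read 3.05, 2.99 and 7.38 on superovulated arrays 1, 2 and 3, against 4.25, 8.47 and 5.96 on the synchronized arrays in the same order. MSX1, listed as an oviduct marker, read up to 8.48 in the superovulated and up to 10.38 in the synchronized group. Its probe set carries the suffix for probes shared by several transcripts, and its other probe set read at most 3.13. OVGP1, the defining oviductal glycoprotein, read at most 2.26. The part of all these markers in the proteasome values was not tested.

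On the deposited scale most proteasome genes read higher in blastocysts from superovulated heifers. Most of those without overlap between the groups were 20S core genes. The core subunit gene PSMB1 rose by 1.15, a 2.22-fold change. It was the only one of the 39 genes to pass an adjusted p of 0.05 in limma, and 0 fell. Of all genes 1.3% passed as higher and 0.0218% as lower. A looser call, an adjusted p below 0.3 with at least a 2-fold difference, took in PSMB4, PSMA6 and PSMD4 besides PSMB1. That made 4 of 39, against 3.15% of all genes, and 2 of the 10 bright members, against 23% of bright genes. At an unadjusted p below 0.05 in limma, 12 of 39 were higher and 0 lower, against 7.86% of all genes higher. Among the bright members 5 of 10 were higher at this line, against 41.7% of bright genes.

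In 12 of the 39 genes every superovulated array lay above every synchronized array, against 9.06% of all genes, and the reverse occurred in 0. Among the 10 bright members this count was 5, against 44.6% of bright genes. The share among bright members is thus near that of bright genes at large. The 12 were 9 core genes (PSMA3, PSMA4, PSMA6, PSMA7, PSMB1, PSMB2, PSMB3, PSMB4 and PSMB5) and 3 genes of the 19S base (PSMC1, PSMD2 and PSMD4). None were lid, activator or chaperone genes, but small shifts would change these counts by role. The gap from the highest synchronized to the lowest superovulated array was -0.01 for the lid genes PSMD11 and PSMD6. It was -0.01 and 0 for the chaperone genes PSMD9 and PSMG2, against 0.05 and 0.06 for the core genes PSMB3 and PSMA3. The count was 21 without superovulated array 1 (11.8% of all genes), 20 without synchronized array 2 (12.5%), and between 13 and 16 without any other single array (10.5% to 11.2%). Leaving out an array can raise such a count but never lower it, so these counts do not test the 12.

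The median difference over the 39 genes was 0.31, against -0.02 over all genes. It was 1.18 over the 10 bright members, against 0.65 over bright genes. By role the medians were 0.69 for the 16 core genes, 0.48 for the 9 base genes, 0.52 for the 4 lid genes, 0.08 for the 4 activator and inhibitor genes and 0.22 for the 6 chaperone genes. All 6 of these proteasome medians fell below 0 when each array was centred on its bright probe sets, a scaling that moves the median of all genes from -0.02 to -0.71 and shifts every difference by -0.69. In that fit limma gave all probe sets the same standard error (0.384), so its p-values hold no error of a gene's own. In all, 33 of 39 differences were above 0, compared with 35.9% of all genes. Among the bright members all 10 were, compared with 74.1% of bright genes. Below log2 4 the 29 dim members had a median of 0.15, against -0.02 over dim genes. Of the 10 bright members PSMB4 passed the line through the superovulated group alone.

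**Figure D1:**
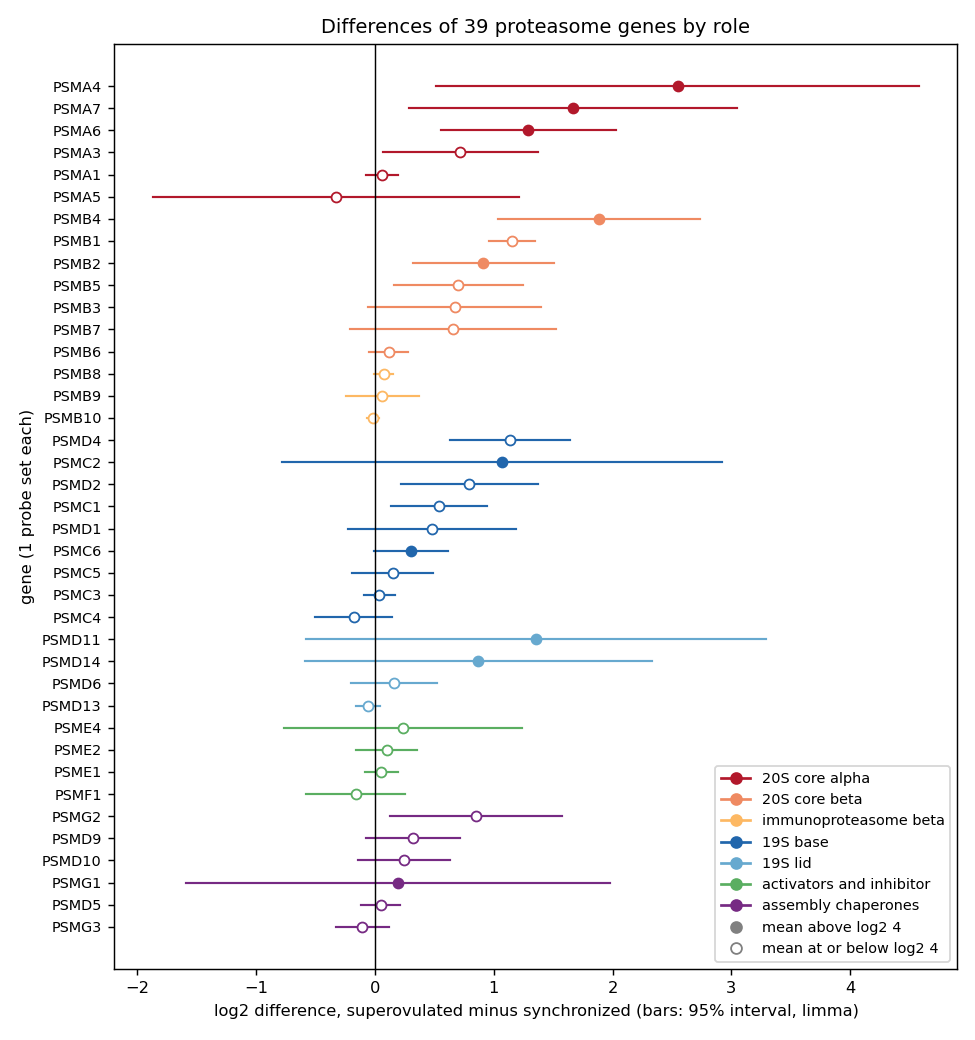
Log2 difference between superovulated and synchronized blastocysts (horizontal axis) for each of 39 proteasome genes (vertical axis), grouped by role, with 95% intervals from limma over 3 arrays per group. Filled points have a mean above log2 4; the largest differences are those of PSMA4 (2.55), PSMB4 (1.89) and PSMA7 (1.67), all in the core, while the immunoproteasome genes lie between -0.02 and 0.07.

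In the alpha ring 4 of 6 genes were higher without overlap, against 9.06% of all genes. Among them were all 3 bright genes of the ring, against 44.6% of bright genes. PSMA7, an alpha ring subunit and the brightest member, read 10.16, 10.45 and 10.42 in the superovulated group against 7.60, 9.63 and 8.80 in the synchronized group, here and below in the order of array 1, 2 and 3. Its groups did not overlap, and the synchronized arrays spread over 2.03 log2 units while the superovulated ones lay close together. The difference of 1.67 (95% interval 0.29 to 3.05) did not pass (adjusted p = 0.579) and was 0.93 after a second quantile normalization. PSMA4, the alpha subunit whose N-terminal tail is central to the closed gate, read 7.24, 6.95 and 6.83 against 2.72, 5.33 and 5.33. Synchronized array 1 was at background for this gene while every other array was bright. The difference of 2.55 (0.51 to 4.58) was the largest of the 39 and did not pass (adjusted p = 0.547). Without synchronized array 1 it was 1.68 (adjusted p = 0.0595), and among bright probe sets alone, of which 31.4% were called, its adjusted p was 0.0493.

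PSMA6, also of the alpha ring, read 6.83, 6.64 and 6.92 in the superovulated group and 5.11, 6.11 and 5.30 in the synchronized group. The groups did not overlap, and synchronized array 2 came nearest to the superovulated arrays. The difference of 1.29 (0.55 to 2.03) met the looser call (adjusted p = 0.258) and passed among bright probe sets alone (0.0290), with array weights (0.0285) and without synchronized array 2 (0.0453). It was 0.38 after a second quantile normalization (adjusted p = 0.751) and 0.60 with centring on bright probe sets. PSMA3 lay near background at 3.55, 3.92 and 3.84 against 2.60, 3.49 and 3.06, a difference of 0.72 without overlap. PSMA1 differed by less, at 3.47 ± 0.07 and 3.41 ± 0.07 (SD, n = 3 each).

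PSMA5 was the exception in sign, with 2.36, 2.31 and 3.32 in the superovulated and 2.41, 4.15 and 2.41 in the synchronized group. Only synchronized array 2 exceeded log2 4, and superovulated array 3 was the next highest. The difference of -0.33 (-1.87 to 1.22) did not pass and became 0.25 without synchronized array 2.

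**Figure D2:**
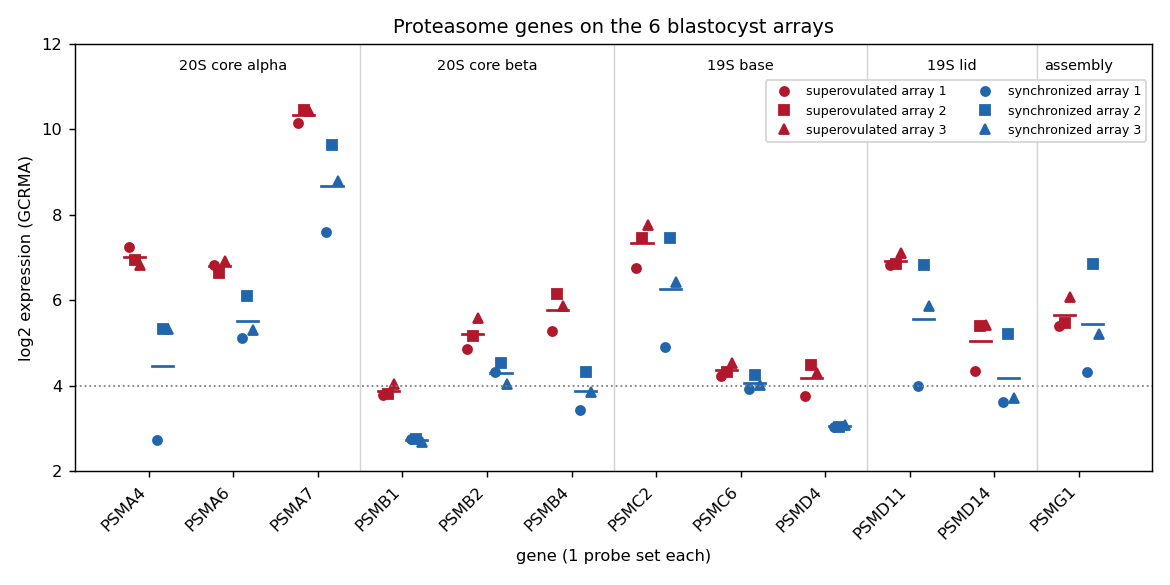
Log2 signal (vertical axis) of the 10 bright proteasome genes and of PSMB1 and PSMD4 on each of the 6 arrays, with horizontal bars at the group means of 3 arrays and a dotted line at log2 4. The superovulated points lie above all synchronized points for every core gene shown and for PSMD4 of the base. PSMC2, PSMC6, PSMD11, PSMD14 and PSMG1 overlap, with synchronized array 2 reaching the superovulated range. Core genes whose groups overlap, among them PSMA1, PSMA5, PSMB6 and PSMB7, are dim and are not shown.

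In the beta rings PSMB1, a structural subunit without a catalytic site, gave the call. It read 3.79, 3.81 and 4.03 in the superovulated group, against 2.76, 2.75 and 2.67. The groups were narrow and far apart, but most of these signals were near background, where GCRMA compresses values. The difference was 1.15 (0.96 to 1.34, adjusted p = 0.0178). Leaving out superovulated array 2 (0.0685) or synchronized array 1 (0.0552) or 3 (0.0726) ended the call. With centring on bright probe sets the difference was 0.46. It was not called there (0.248), in a fit with 1 standard error for all probe sets.

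PSMB4, another non-catalytic subunit, read 5.27, 6.15 and 5.86 against 3.43, 4.33 and 3.86. All superovulated arrays were above all synchronized arrays by at least 0.94 log2 units. The difference of 1.89 (1.04 to 2.74), a 3.7-fold change, met the looser call (adjusted p = 0.135). PSMB2 read 4.85, 5.16 and 5.59 against 4.31, 4.52 and 4.03, again without overlap. Its difference of 0.91 (0.32 to 1.51) did not pass (adjusted p = 0.362) and was 0.42 after a second quantile normalization. The PSMB2 probe set carries the suffix for probes shared by several transcripts, and its other probe set stayed at background with a difference of 0.01. PSMB3, also non-catalytic, had a difference of 0.67 near background, with 3.41 and 3.11 on superovulated arrays 1 and 2 but 2.35 on array 3, against at most 2.30 in the synchronized group.

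The catalytic beta genes lay between log2 2.95 and 4.64. PSMB5, which carries the chymotrypsin-like site, read 3.48, 3.78 and 4.23 against 2.95, 3.24 and 3.19, a difference of 0.70 (0.16 to 1.25, adjusted p = 0.524). Its groups did not overlap. PSMB7, with the trypsin-like site, had a difference of 0.66 with overlapping groups, since synchronized array 3 (3.95) lay above superovulated array 3 (3.93). PSMB6, with the caspase-like site, read 3.74, 3.95 and 3.82 against 3.69, 3.78 and 3.69. Its difference of 0.12 (-0.05 to 0.28) was the smallest of the constitutive beta genes.

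The immunoproteasome genes stayed near background. PSMB8, PSMB9 and PSMB10 encode the catalytic subunits that replace PSMB5, PSMB6 and PSMB7 after interferon stimulation. PSMB8 read 2.42, 2.51 and 2.49 in the superovulated and 2.43, 2.39 and 2.38 in the synchronized group. PSMB10 read 2.29, 2.28 and 2.27 against 2.32, 2.27 and 2.30, and PSMB9 averaged 2.78 ± 0.09 and 2.71 ± 0.21 (n = 3 each). Every one of these values was under log2 3. The differences were 0.07, 0.06 and -0.02 for PSMB8, PSMB9 and PSMB10. PSMB8 and PSMB9 flank TAP1, the 1 coding gene between them in the ARS-UCD2.0 gene table. TAP1, ISG15, MX1 and GBP4, the interferon-response genes measured, read at most 3.16 on any array.

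In the 19S base PSMD4, a receptor that binds ubiquitin chains, showed the clearest separation. It read 3.76, 4.48 and 4.30 in the superovulated group, against 3.02, 3.04 and 3.07. The synchronized values sat together at background and the superovulated values 0.69 or more above them. The difference of 1.14 (0.63 to 1.64) met the looser call (adjusted p = 0.130) and passed without superovulated array 1 (0.0281). The probes of this set are shared by several transcripts too. Its other probe set, at background, had a difference of 0.23, and the mean of both was 0.68. The scaffold genes PSMD2 and PSMD1 differed by 0.79 and 0.48, the first without overlap.

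The ATPase genes of the base differed by -0.18 to 1.07, and 0 of 6 passed (limma), with 1 of 6 at an unadjusted p below 0.05. PSMC2 was bright and read 6.76, 7.46 and 7.77 against 4.90, 7.45 and 6.43. Synchronized array 2 lay within the superovulated range, so the groups overlapped and the difference of 1.07 had an interval of -0.78 to 2.92. It was 0.39 without synchronized array 1, 1.67 without synchronized array 2 and 0.16 after a second quantile normalization. Its probes are shared by several transcripts as well, and its other probe set differed by 0.12. PSMC1, whose C-terminal tail helps to open the core's gate, differed by 0.54 without overlap, at 3.82 ± 0.30 and 3.28 ± 0.03. PSMC6 read 4.23, 4.32 and 4.54 against 3.91, 4.24 and 4.02, a difference of 0.31, which became 0.0094 after a second quantile normalization, while its other probe set gave -0.13. PSMC5 differed by 0.15 on its brighter probe set and by 0.49 on the dimmer one, where the groups did not overlap (adjusted p = 0.129). PSMC3 (0.04) and PSMC4 (-0.18) stayed near background, and PSMC4 read 3.03, 3.15 and 2.96 against 3.07, 3.48 and 3.13.

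The lid showed large but overlapping differences in its bright genes. PSMD11, a lid scaffold that also clamps the core, read 6.82, 6.84 and 7.10 in the superovulated group and 4.0, 6.83 and 5.86 in the synchronized group. Synchronized array 2 matched the superovulated arrays, and synchronized array 1 lay 2.82 or more log2 units below them. The difference of 1.36 had an interval of -0.58 to 3.29 (adjusted p = 0.636). It was 0.58 without synchronized array 1 and 0.62 after a second quantile normalization. PSMD14, the deubiquitinase of the lid, read 4.34, 5.40 and 5.42 against 3.62, 5.22 and 3.71, a difference of 0.87 (-0.59 to 2.33) that was 1.39 without synchronized array 2. Superovulated array 1 lay below synchronized array 2 for this gene. PSMD6 and PSMD13 were at background, with differences of 0.16 and -0.06. PSMD13 read 2.35, 2.33 and 2.32 against 2.36, 2.34 and 2.47.

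The alternative activators and the inhibitor were near background. PSME1 and PSME2 encode the interferon-inducible activator of the core and have 1 coding gene between them in the gene table. They averaged 2.66 ± 0.10 and 3.46 ± 0.18 in the superovulated group and 2.61 ± 0.01 and 3.36 ± 0.05 in the synchronized group (n = 3 each). PSME4, the large single-chain activator of the nucleus, read 2.88, 3.35 and 4.10 against 2.72, 3.54 and 3.36. Its difference of 0.24 (-0.77 to 1.24) rested on superovulated array 3 and was -0.09 without it. PSMF1, an inhibitor of the isolated core, read 2.91, 2.90 and 2.96 against 3.44, 2.90 and 2.91. Its difference of -0.16 rested on synchronized array 1 and was 0.02 without it.

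Among assembly chaperones PSMG1 stood out by its spread rather than by its group. PSMG1 and PSMG2 form a pair that starts the alpha ring. PSMG1 read 5.40, 5.47 and 6.07 against 4.31, 6.84 and 5.20, so both the highest and the lowest array were synchronized. Its difference was 0.20 (-1.59 to 1.98). PSMG2 read 4.12, 3.70 and 4.32 against 2.92, 3.70 and 2.97, a difference of 0.85 (0.13 to 1.57, adjusted p = 0.607) with superovulated array 2 and synchronized array 2 at the same value. PSMG3 read 2.48, 2.48 and 2.46 against 2.77, 2.47 and 2.50. The base chaperone genes PSMD5, PSMD9 and PSMD10 differed by 0.05, 0.32 and 0.24 near background.

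Genes that serve the proteasome without a PSM symbol showed 2 rises in a list of 31 symbols (aliases included), of which 18 had a probe set. Of all genes 1.3% were called higher. UCHL5, a deubiquitinase docked on the 19S base, rose from 2.76, 2.81 and 2.72 in the synchronized group to 3.82, 4.04 and 3.99 in the superovulated group, by 1.19 (adjusted p = 0.0139). POMP, the chaperone that joins beta subunits onto the alpha ring, rose from 2.59, 3.20 and 3.22 to 5.27, 5.55 and 5.22, by 2.34 (adjusted p = 0.0299). Like PSMB1 both went from background to low signal with no overlap. UCHL5 did not pass without superovulated arrays 2 (0.0518) or 3 (0.0576) or synchronized arrays 1 (0.0513) or 3 (0.0615). With centring on bright probe sets its difference was 0.49. It was not called there (0.213), in a fit with 1 standard error for all probe sets. POMP passed only without synchronized array 1 (0.0386) among the fits that left out 1 array, and its other probe set differed by 0.01.

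None of the 18 fell in limma, 0 were lower at an unadjusted p below 0.05, and their median difference was -0.05. The next smallest p belonged to NFE2L1, a transcription factor that raises proteasome genes when the proteasome is inhibited, and to RAD23B, a shuttle for ubiquitinated cargo. NFE2L1 read 3.23, 3.23 and 3.07 against 3.33, 3.23 and 3.50, a difference of -0.18. Its other probe set, also near background, differed by 0.21. RAD23B read 4.18, 4.17 and 4.48 against 3.98, 4.21 and 3.90, a difference of 0.25. Neither gene passed (adjusted p = 0.636 for both). ADRM1, the ubiquitin receptor that binds UCHL5, averaged under log2 3 in both groups.

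**Figure D3:**
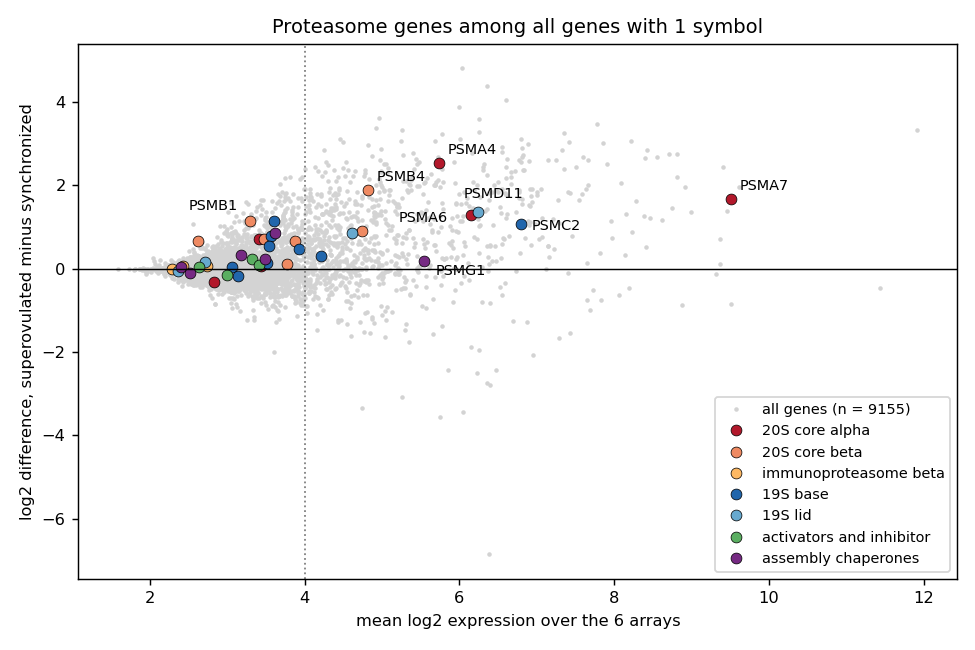
Mean log2 expression over the 6 arrays (horizontal axis) against the log2 difference between the groups (vertical axis) for 9155 genes in grey and 39 proteasome genes coloured by role; the dotted line marks log2 4. Bright genes as a body lie above 0 (median 0.65), and the 5 bright core genes range from 0.91 for PSMB2 to 2.55 for PSMA4.

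The bright members followed the arrays as well as the groups. Synchronized array 1 was the lowest of the 6 arrays in 9 of 10 bright members, against 56.1% of bright genes. It lay below every superovulated array in all 10, against 75.8% of bright genes. Synchronized array 2 was the highest synchronized array in 9 of 10, against 61.9% of bright genes, and shared its value with array 3 in the other, PSMA4. The median SD within the group was 0.96 among the synchronized and 0.29 among the superovulated arrays, against 0.63 and 0.31 over bright genes. The same arrays differed in their number of bright probe sets, 973 on synchronized array 1 and 1850 on array 2; the part of this in the proteasome values was not tested.

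Against synchronized array 2 alone, 15 of the 39 genes lay below every superovulated array, compared with 25% of all genes, and 5 of the 10 bright members did, compared with 50.7% of bright genes. Those 5 were the core genes PSMA4, PSMA6, PSMA7, PSMB2 and PSMB4. The bright base, lid and chaperone genes PSMC2, PSMC6, PSMD11, PSMD14 and PSMG1 overlapped there. Synchronized array 2 was the highest synchronized array, or tied for it, in all 10. Among bright members this split therefore repeats the one over all arrays and adds nothing to it. The median difference against this array was 0.14 for the 39 genes, against 0.01 for all genes, and 0.40 for the bright members, against 0.21 for bright genes. It was 0.15 for the base and 0.04 for the lid.

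**Figure D4:**
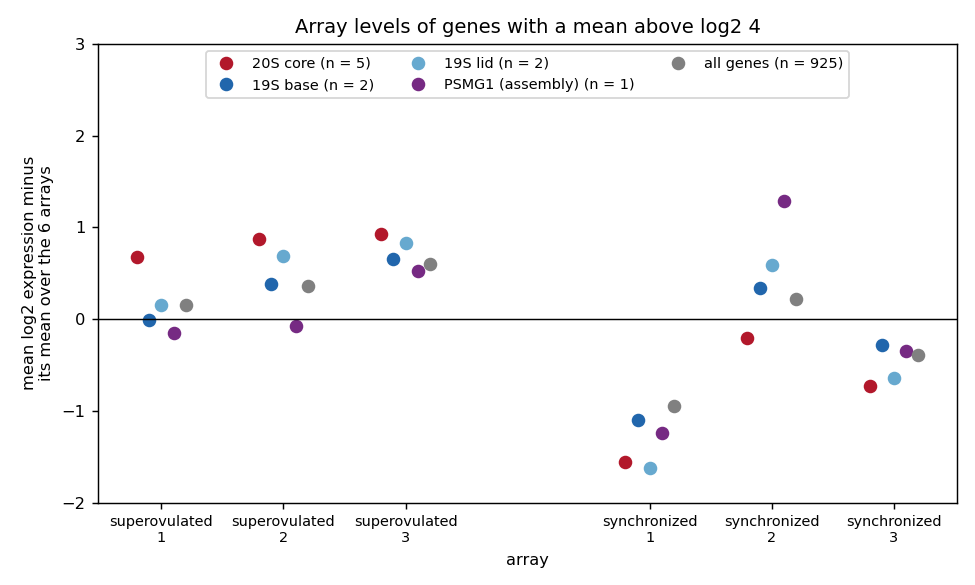
Mean log2 expression of the bright genes of each role on each array (horizontal axis), minus its mean over the 6 arrays (vertical axis, log2 units). On synchronized array 2 the 5 core genes sat at -0.21 while the base (0.34), the lid (0.60) and PSMG1 (1.29) lay above their means; on synchronized array 1 every role was low, the core at -1.56 and the 925 bright genes at -0.95.

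PSME3IP1, matched by its symbol and not a proteasome component, read 3.12, 3.82 and 3.89 against 3.05, 3.03 and 2.86. It lay near background and its difference of 0.63 (0.04 to 1.22) did not pass (adjusted p = 0.636).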

How the data were processed

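The authors deposited a table of log2 signals from the Affymetrix GeneChip Bovine Genome Array, with a row for each probe set and a column for each of 6 arrays. GCRMA, which corrects background, normalizes and summarizes probes, made these signals per the submitters' processing notes. Its version is not stated there, nor whether the arrays were processed as 1 set. Per the labels' protocols the RNA was amplified and biotin was incorporated in the second transcription. The values were used as deposited. Control probe sets (112) were left out, which left 24016 probe sets. Gene symbols came from the platform annotation: 13292 probe sets had 1 symbol, 86 several and 10638 none; all 40 member genes matched the ARS-UCD2.0 gene table by identifier.

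Group differences were fitted in R 4.3.3 by limma 3.58.1 (lmFit and eBayes with a group term alone, two-sided), with Benjamini-Hochberg adjustment over all 24016 probe sets. Summaries used Python 3.11.15 and pandas 2.3.3. The procedure was tested on simulated data. The members and lists were chosen with earlier results of these data known. Values on every array were given for members past either call, for bright members without overlap, and for the largest and smallest difference of each role. Other members that are given array by array, and the markers singled out, were chosen after their values were seen. Array number, 3 per group, limits the precision. The closing section gives the alternatives: other scalings, a filter on dim probe sets, other variance models, array weights, a replicate block, left-out arrays and all probe sets of a gene.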

Additional observations from a re-analysis of the deposited data

How the results depend on the processing

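The count of 172 probe sets called was 28 after a second quantile normalization, 529 with centring on bright probe sets (a fit with 1 standard error for all probe sets, where PSMA4 and not PSMB1 was the proteasome gene called), 441 among bright probe sets alone, 50 with an intensity trend, 515 with array weights, 1 without superovulated array 3 and synchronized array 2 together, and 26 to 137 without single arrays. The 1 proteasome gene called higher became 3 of 10 among bright probe sets alone, where 31.4% of all were called, 2 of 39 with array weights, where 2.14% were, 0 without that pair, and 0 to 2 without single arrays. The 4 past the looser call became 11 with array weights, 2 without that pair and 1 to 7 without single arrays. The 2 partners called became 1 after a second quantile normalization, 1 among bright probe sets, 0 without that pair and 0 to 1 without single arrays; with centring on bright probe sets 3 were called, UCHL5 not among them. No setting called a proteasome gene lower. The count of 12 genes without overlap, whose settings were chosen after seeing the data, became 4 with centring on bright probe sets, where 3.1% of all genes had none, and 13 to 21 without single arrays, where 10.5% to 12.5% had none. Leaving out an array cannot lower this count.

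With centring on bright probe sets the medians were -0.39 over all proteasome genes, -0.0053 for the core, -0.21 for the base, -0.18 for the lid, -0.62 for activators and the inhibitor, -0.47 for chaperones and -0.71 over all genes. The median of all genes was 0.00 with median centring (0.0033) and 0.01 against synchronized array 2 alone. Bright genes alone gave 1.18 over all proteasome genes, 1.67 for the core, 0.69 for the base, 1.11 for the lid and 0.65 over all genes. The base median was 0.15 against synchronized array 2 alone, 0.16 after a second quantile normalization and 0.27 to 0.54 without single arrays; the lid median was 0.042 against synchronized array 2 alone.

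Some differences turned sign. Centring on bright probe sets shifts every difference by -0.69, so it turned every positive difference smaller than that. Among these were PSMB6 (-0.58), PSMB8 (-0.62), PSME4 (-0.46) and PSMC6 (-0.39). Other turns included PSMB10 with median centring (0.0067) and PSMC4 with array weights (0.0018). Without single arrays they included PSME4 (-0.092 to 0.52), PSMF1 (-0.25 to 0.018) and PSMA5 (-0.66 to 0.25). The turns came without superovulated array 3 (PSME4), synchronized array 1 (PSMF1, and PSME4 at -0.0067) and synchronized array 2 (PSMA5).

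Deviations of same-numbered arrays from their group means correlated over bright probe sets at 0.60, -0.54 and -0.44. The highest correlation, 0.74, was between superovulated array 3 and synchronized array 2, the pair left out together above. These values do not settle whether the replicate numbers mark pairs, since the deviations within a group sum to 0. With the number as a replicate block 0 probe sets, 0 proteasome genes higher and 0 partners were called, and 2 genes met the looser call. The cause of these changes was not tested. Signal near background limits 29 of the 39 genes.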
